A study of Mus musculus with 12 samples.

Results

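The Kcnq1ot1-Cdkn1c domain is an imprinted stretch of distal mouse chromosome 7, described here by the CpG island probes that lie in its window, chr7:150150000-150710000 (build mm9). Of the 88737 probes of the array, 86 fell in this 560.0 kb window, and these formed 10 loci (runs of probes with gaps of up to 1000 bp) of the 14580 on the array. The domain was chosen by the log2 ratios of CC9spretus against the other lines at one of its loci, the Kcnq1ot1 control region, in these same data, so the values of CC9spretus against the rest are given as a description and carry no test.

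Imprinted genes are expressed from the copy inherited from 1 parent. In this domain the promoter of Kcnq1ot1, a long non-coding RNA that runs antisense through Kcnq1, is the imprinting control region: it is known to be methylated on the maternal copy, where the RNA is silent, and unmethylated on the paternal copy, where the RNA is made and the neighbouring genes are held silent. Those neighbours include Cdkn1c, which encodes the cyclin-dependent kinase inhibitor p57, Phlda2, whose product limits growth of the placenta, Ascl2, a transcription factor of the placental lineage, and Kcnq1, which encodes a potassium channel subunit.

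The 12 arrays comprised 3 biological replicates of each of 4 mouse ES cell lines. All 4 lines carry the chromosomes of the Mus musculus ES line CC9.3.1, whose own mtDNA had been depleted, and were made by fusion with enucleated cytoplasts. They differ in that CC9mus holds Mus musculus mtDNA, CC9spretus Mus spretus mtDNA, CC9dunni Mus dunni mtDNA and CC9pahari Mus pahari mtDNA. All were undifferentiated, grown on mitomycin C-treated fibroblast feeders and then held for 48 h without feeders. Each mtDNA was represented by 1 line, so the mtDNA and the history of that line cannot be told apart. DNA methylation was read by MeDIP: sheared DNA pulled down with a 5mC antibody (IP, labelled with Cy5) was hybridised together with the input DNA (Cy3). The value used throughout is the log2 ratio of IP over input, centred on the median of each array, so 0 is the typical probe of that array. MeDIP enrichment also depends on CpG density, so a ratio is not a percentage of methylated DNA, and the parental copies are not resolved. Fewer methylated copies and less methylation per copy cannot be told apart, and the labelled cell type could not be checked against marker genes, since the array measures no expression.

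The loci lay in the order Ascl2 end, locus 2, locus 3, locus 4, Kcnq1ot1 control region, locus 6, locus 7, Cdkn1c, locus 9 and Phlda2 end. Names were given only to loci whose position the definition of the domain states: the control region at 150.48 to 150.484 Mb, Cdkn1c at about 150.64 Mb, and the loci nearest to either edge of the window for Ascl2 and Phlda2. The other loci are known here by position alone. Of Kcnq1 only the control region that lies inside the gene was placed, and loci known by position may belong to Kcnq1 too. The Ascl2 end (17 probes, chr7:150153302-150155481), the Kcnq1ot1 control region (8 probes, chr7:150481208-150482535), the Cdkn1c locus (15 probes, chr7:150644899-150647431) and the Phlda2 end (13 probes, chr7:150687585-150688863) held most of the probes.

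RefSeq promoter sequences (GRCm38.p6, another build than that of the probes, 250 bases before to 50 after the start) were found for 3 of the 5 genes, Ascl2, Kcnq1ot1 and Phlda2. They are shown because MeDIP enrichment depends on CpG density as well as on methylation. The Kcnq1ot1 promoter (chr7:143296498-143296797, minus strand) is printed whole, and for Ascl2 (chr7:142969265-142969514, minus strand) and Phlda2 (chr7:143502525-143502774, minus strand) the 250 bases before the start are printed, 5′ to 3′, with each CG in capitals.
Kcnq1ot1: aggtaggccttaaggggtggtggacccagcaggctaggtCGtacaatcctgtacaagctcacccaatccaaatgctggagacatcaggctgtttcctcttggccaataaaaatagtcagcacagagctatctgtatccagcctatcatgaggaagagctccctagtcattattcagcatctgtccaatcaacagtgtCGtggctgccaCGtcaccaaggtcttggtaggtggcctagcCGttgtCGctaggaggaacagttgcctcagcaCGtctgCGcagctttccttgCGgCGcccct
Ascl2: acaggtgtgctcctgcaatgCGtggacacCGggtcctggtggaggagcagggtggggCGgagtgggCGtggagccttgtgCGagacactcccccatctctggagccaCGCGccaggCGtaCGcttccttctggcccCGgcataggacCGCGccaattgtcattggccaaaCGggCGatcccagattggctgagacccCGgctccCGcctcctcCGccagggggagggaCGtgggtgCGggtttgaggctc
Phlda2: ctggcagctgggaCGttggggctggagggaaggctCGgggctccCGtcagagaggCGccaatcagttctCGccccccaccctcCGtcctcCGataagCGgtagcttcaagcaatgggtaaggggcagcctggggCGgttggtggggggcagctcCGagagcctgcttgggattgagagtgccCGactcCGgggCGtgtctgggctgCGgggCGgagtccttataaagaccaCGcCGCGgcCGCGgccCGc
Over the 300 bases, Kcnq1ot1 held 9 CG, of which 7 lay in the last 100 bases, Ascl2 held 23 and Phlda2 26, against a median of 7 over 32851 promoters. CCAAT, the box bound by NF-Y, searched on both strands, occurred 3 times in the Kcnq1ot1 promoter, 3 times in Ascl2 and 1 time in Phlda2, and in 37.4% of all promoters. TATAAA occurred 1 time in Phlda2 and in neither of the others (13.6% of all promoters). TGCCGC, which ZFP57 binds when methylated and which itself contains a CG, was in none of the 3 windows and in 11.6% of all promoters. The windows were not matched to the probes. These counts thus do not describe the 1328 bp measured at the control region.

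The arrays differed in spread. Over all probes, CC9mus replicates 1, 2 and 3 had SDs of the log2 ratio of 0.53, 1.85 and 2.01, while the other lines had SDs of 1.09 to 1.38. The scans fell into 2 periods (5 days, 8 slides), the earlier holding replicates 1 and 2 of CC9spretus, CC9dunni and CC9pahari, and the later period all CC9mus arrays and replicate 3 of the other lines. CC9mus was scanned on a day of its own, so day and line cannot be told apart for it. Of the 86 probes of the domain, 84 to 86 per array had an input clearly over background and 69 to 86 an IP clearly over background, by the scanner software's own mark (well above background).

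At the Kcnq1ot1 control region, CC9spretus was enriched for 5mC, and the other 3 lines lay near or below the array median. The locus mean in CC9spretus was 2.61, 4.46 and 2.83 on replicates 1, 2 and 3 (mean 3.30 ± 1.01, SD, n = 3). In CC9mus it was -0.14, -0.10 and -0.48 (mean -0.24 ± 0.21, SD, n = 3), in CC9dunni -0.48, -0.50 and 0.35 (mean -0.21 ± 0.49, SD, n = 3), and in CC9pahari -0.27, -0.38 and 0.19 (mean -0.15 ± 0.30, SD, n = 3). The lowest CC9spretus array therefore lay above the highest of the 9 others, and the 3 other lines overlapped one another. The value of CC9pahari replicate 3 is a mean of 7 probes, since 1 spot was marked as an outlier by the scanner software. CC9spretus exceeded the mean of the other lines by 3.50 on the log2 scale, a ratio 11.3-fold higher, and by 3.54, 3.51 and 3.45 against CC9mus, CC9dunni and CC9pahari taken singly. The fold depended on the processing: it was 5.47 with normexp background correction and 6.63 within the later scan period alone. With the scan period as a block and the arrays scaled to an equal spread, the difference was 4.10. Its log2 ratios were rescaled by array, so it is not a fold of IP over input.

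The enrichment ran along the whole of the measured 1328 bp. All 8 probes had a CC9spretus mean between 2.66 and 3.79, and the means of the other lines at these probes lay between -0.92 and 0.53. The largest difference was at probe A_68_P25599904 (chr7:150482193-150482237), where CC9spretus measured 2.85, 4.85 and 3.68 and the others reached 0.62 at most, and the smallest was at A_68_P25599898 (chr7:150481545-150481589), where CC9spretus measured 2.53, 3.99 and 2.49 and the others reached 0.68 at most. Their differences between CC9spretus and the mean of the other lines were 4.41 and 2.83. On A_68_P25599906, the last probe (chr7:150482491-150482535), CC9spretus replicate 1 fell nearest to the others, at 1.63 against a highest value of 0.73 elsewhere. The 5 remaining probes had differences of 2.84 to 4.11. Neighbouring probes can be reached by the same fragments, so the 8 probes are not 8 independent measurements. CC9spretus replicate 2 was the highest of the 3 CC9spretus arrays at all 8 probes, and without it the difference of the locus was 2.92.

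**Figure D1:**
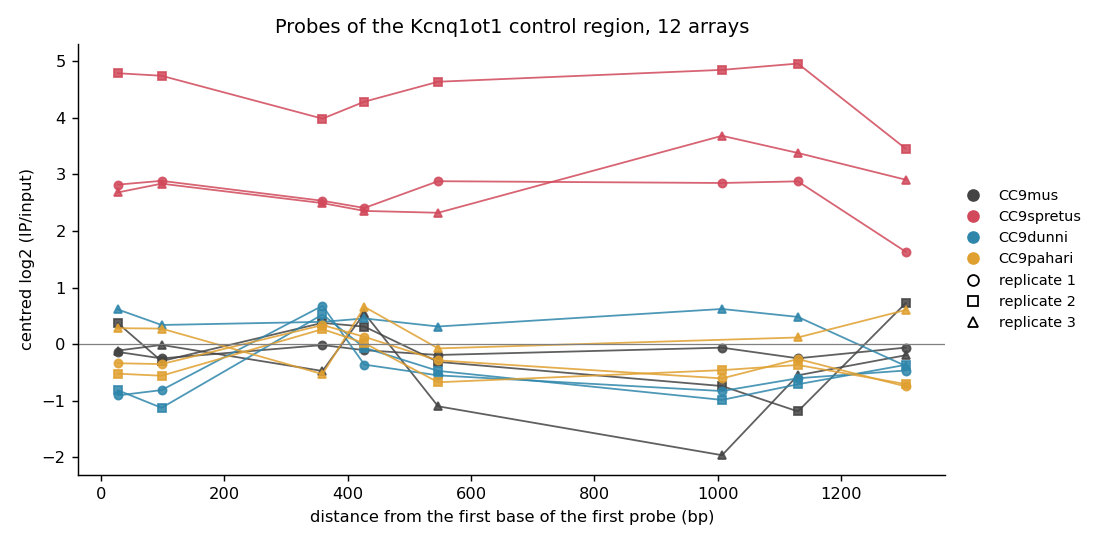
Centred log2 ratio (IP/input) of the 8 probes of the Kcnq1ot1 control region against the distance of the probe's middle from the first base of the first probe, in bp, with 1 line per array, coloured by ES line and marked by replicate. The 3 CC9spretus arrays lie between 1.63 and 4.96, and the 9 other arrays between -1.96 and 0.73.

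The difference lay in the IP signal: CC9spretus exceeded the other lines by 3.37 in the IP and differed by -0.13 in the input. The centred log2 IP signal over the 8 probes was 2.75, 4.43 and 3.05 in CC9spretus, and -0.50 to 0.59 on the 9 other arrays. The centred log2 input signal was 0.12, 0.00 and 0.38 in CC9spretus and -0.02 to 0.63 elsewhere, so these ranges overlapped. In CC9mus the input was 0.61 ± 0.02 (SD, n = 3), the highest of the lines, and the IP 0.34 ± 0.30 (SD, n = 3). The input signal of all 8 probes was well above background on all 12 arrays. In the IP, all 8 probes passed this mark on the 3 CC9spretus arrays and 6 to 8 on the others, so the low values of the other lines include spots near background.

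**Figure D2:**
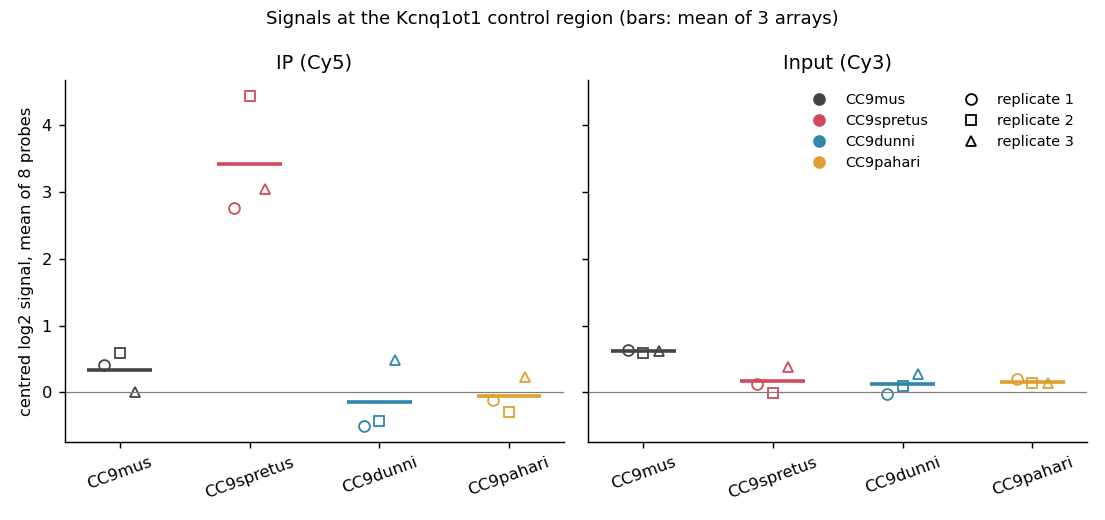
Centred log2 signal, mean of the 8 probes of the Kcnq1ot1 control region, in the IP channel (left) and the input channel (right), with 1 point per array and a bar at the mean of the 3 arrays of each line. The CC9spretus arrays stand apart in the IP (2.75 to 4.43) and lie among the others in the input.

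Ranked within each array among the 14580 loci, the control region was at the 94.7, 98.4 and 93.7 percentile in CC9spretus. Elsewhere the percentile ranged from 21.0 to 72.9, with a median of 31.6 over the 9 arrays. CC9dunni replicate 3 (72.9) and CC9pahari replicate 3 (56.3) were above replicates 1 and 2 of the same lines (21.0 to 27.3), and these replicate 3 arrays belong to the later scan period. Within that period alone, CC9spretus replicate 3 measured 2.83, and the 5 other arrays between -0.48 and 0.35. Of all loci, the control region had the largest difference between CC9spretus and the other lines, and the next had 2.26 (24 probes, chr2:174122729-174126550). The 8 probes ranked from 1 to 16 among the 88737. These ranks describe how the domain came to be chosen. All 8 had the 3 CC9spretus arrays above every other array, which held for 0.211% of all probes, and no probe of the domain had them below (0.157% of all probes).

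Whether CC9mus, CC9dunni and CC9pahari differed from one another at the control region was tested with limma, each line against the mean of the other 2 of these, contrasts in which no CC9spretus mean enters, although the residual spread was estimated over all 12 arrays, those of CC9spretus included. The difference was -0.06 for CC9mus (95% interval -0.89 to 0.78, adjusted p = 0.926), -0.02 for CC9dunni (-0.85 to 0.82, adjusted p = 0.992) and 0.07 for CC9pahari (-0.76 to 0.91, adjusted p = 0.934). No difference was detectable, and the intervals together run from -0.89 to 0.91 on the log2 scale. CC9spretus had the largest SD at this locus (1.01), and in a fit of the 9 other arrays alone the intervals were -0.62 to 0.51 for CC9mus, -0.58 to 0.55 for CC9dunni and -0.49 to 0.64 for CC9pahari. None of the 8 probes was called in any of the 3 contrasts.

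Outside the control region the domain did not follow it. CC9spretus was below the mean of the other lines at each of the other 9 loci, by 0.26 to 0.61 on the log2 scale (values -0.61 to -0.26). It was below at 73 of the other 78 probes (52.7% of all probes), with a median of -0.50 against -0.02 over all probes. The mean of the other lines includes the high CC9mus arrays given below. Against the mean of CC9dunni and CC9pahari alone, CC9spretus was higher at 5 of these 9 loci and lower at 4, with differences of -0.26 to 0.11. It was below at 36 of the 78 probes, with a median of 0.03 against -0.02 over all probes. Within this remainder the 2 highest differences were 0.22 at A_68_P25601073 of the Cdkn1c locus and 0.11 at A_68_P25597938 of the Ascl2 end. The 2 lowest were -1.53 at A_68_P25601376 of the Phlda2 end and -1.31 at A_68_P25598739 of locus 4. The first of these low values rests on CC9dunni replicate 1, which measured 6.22 there, against 0.09 and -0.31 on replicates 2 and 3. At both of these low probes the IP was well above background on 6 of 12 arrays. The input was so on 8 arrays at the first and 11 at the second.

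**Figure D3:**
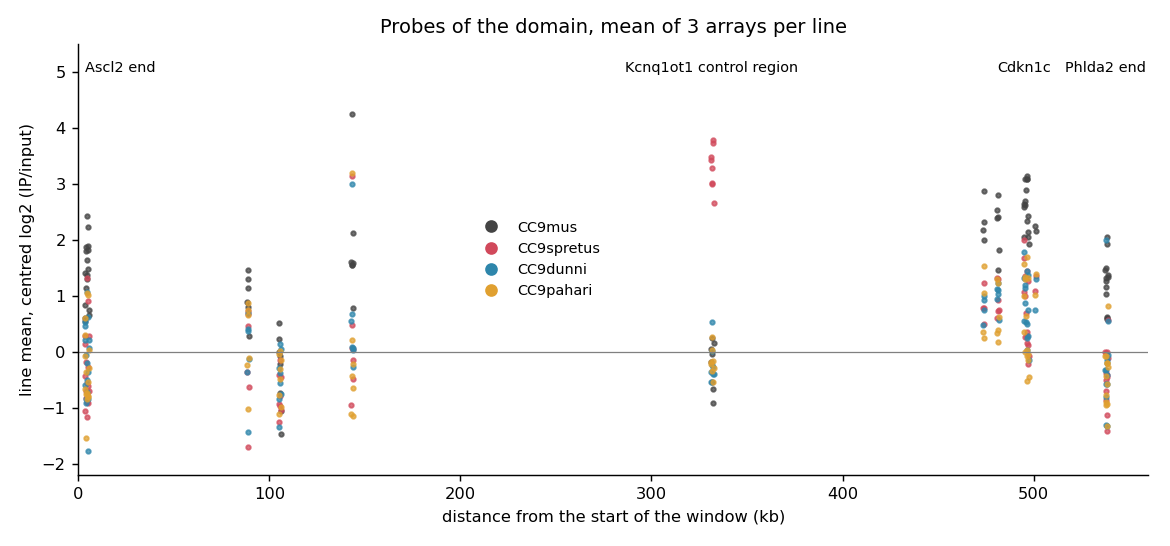
Mean centred log2 ratio (IP/input) of the 3 arrays of each line for the 86 probes of the domain, against the distance from the start of the window in kb. The CC9spretus points (2.66 to 3.79) lie apart from the other lines at the Kcnq1ot1 control region, and CC9mus points lie highest at most of the remaining loci.

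The Cdkn1c locus and its neighbours had ratios above the array median on all 12 arrays. At Cdkn1c, whose protein arrests the cell cycle, the locus mean was 0.73, 2.45 and 4.57 in CC9mus (mean 2.58 ± 1.92, SD, n = 3, and 1.59 without replicate 3) and 0.82, 0.61 and 0.84 in CC9spretus (mean 0.76 ± 0.13, SD, n = 3). It was 0.77, 0.85 and 0.75 in CC9dunni (mean 0.79 ± 0.06, SD, n = 3) and 0.52, 0.49 and 0.59 in CC9pahari (mean 0.53 ± 0.05, SD, n = 3). CC9mus replicates 2 and 3 lay above all 9 arrays of the other lines (as at 18.7% of all loci), and CC9mus replicate 1 lay among them. Loci 6, 7 and 9, on either side of Cdkn1c, had CC9mus means of 2.34 ± 1.71, 2.38 ± 1.79 and 2.20 ± 1.29 (SD, n = 3), and means of 0.68 to 1.22 in the other lines. CC9mus replicate 1 measured 0.56, 0.50 and 0.77 there, within the range of the other lines at loci 6 and 7 and the lowest of the 12 arrays at locus 9, and without replicate 3 the CC9mus means of loci 6 and 7 were 1.52 and 1.54. Over loci 6 to 9, counting Cdkn1c as the eighth, the within-array percentile was 73.4 to 96.8 on every array, and 89.1 to 96.8 on those of CC9mus, replicate 1 included.

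At the Ascl2 end the locus mean was 0.18, 1.01 and 3.00 in CC9mus (mean 1.40 ± 1.45, SD, n = 3, and 0.60 without replicate 3), and the 9 arrays of CC9spretus, CC9dunni and CC9pahari gave -0.40 to -0.08. At the Phlda2 end it was 0.01, 0.80 and 2.92 in CC9mus (mean 1.25 ± 1.50, SD, n = 3, and 0.41 without replicate 3), and -0.62 to -0.13 elsewhere. All 3 CC9mus arrays were thus above the other 9 at either edge of the domain, replicate 1 by the smallest margin. How many of all loci had this order was not counted. CC9mus replicates 2 and 3 alone were above the other 9 at 18.7% of all loci. The within-array percentile of these 2 loci was 51.1 to 87.0 in CC9mus and 6.81 to 43.6 in the other lines.

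Locus 4 (7 probes, chr7:150292835-150293767) had means of 1.92 ± 1.21 in CC9mus, 0.30 ± 0.31 in CC9spretus, 0.59 ± 0.17 in CC9dunni and -0.02 ± 0.21 in CC9pahari (SD, n = 3 each). One of its probes, A_68_P25598742 (chr7:150293216-150293260), was enriched in every line, with means of 4.24, 3.13, 3.00 and 3.19 in the same order. Locus 2 (6 probes, chr7:150238504-150239309) measured 0.07, 0.81 and 2.05 in CC9mus (mean 0.98 ± 1.00, SD, n = 3, and 0.44 without replicate 3), and had means of -0.14, -0.07 and 0.15 in CC9spretus, CC9dunni and CC9pahari. Locus 3 (8 probes, chr7:150254989-150255934) had the lowest mean ratio of the domain in every line, with means of -0.36, -0.75, -0.50 and -0.48 in CC9mus, CC9spretus, CC9dunni and CC9pahari, and CC9mus arrays from -1.18 to 0.77.

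**Figure D4:**
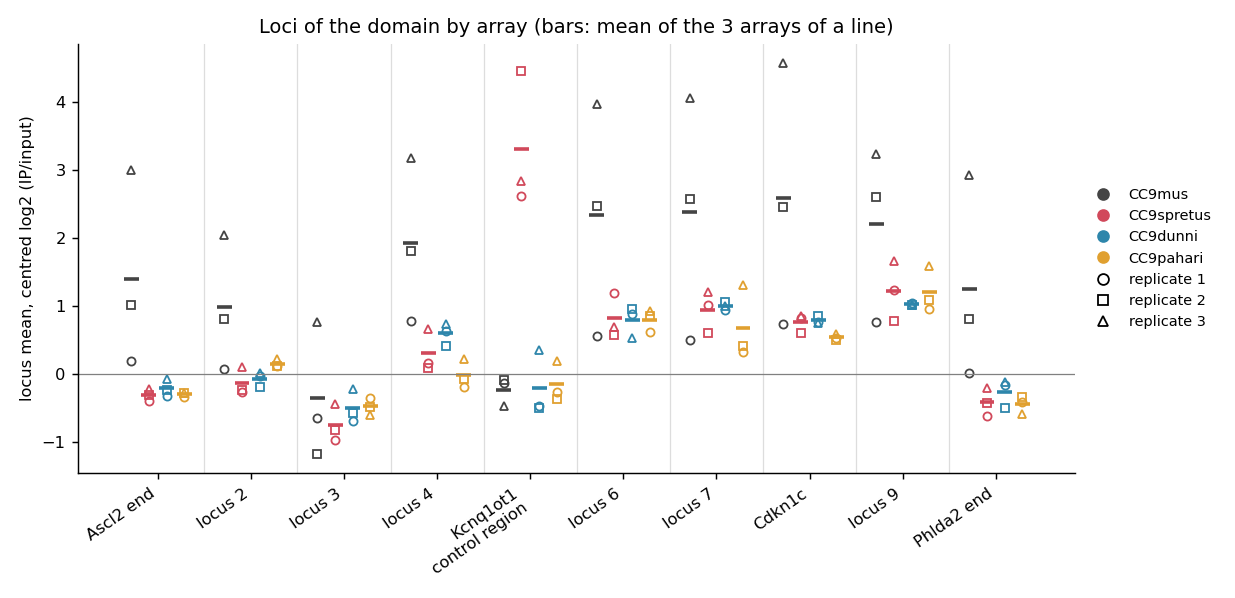
Mean centred log2 ratio (IP/input) of the probes of each of the 10 loci, in order along the domain, with 1 point per array (colour, line; marker, replicate) and a bar at the mean of the 3 arrays of a line. CC9mus replicates 2 and 3 lie above the 9 arrays of the other lines at 8 of the 9 loci other than the control region (18.7% of all loci), where the 3 CC9spretus arrays lie above all others.

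In limma, 15 of the 86 probes of the domain were called higher in CC9mus than in the mean of CC9dunni and CC9pahari, and none lower, but these calls did not hold under several other fits. None of the 86 was called with the slide as a random block, with the scan period as a block, with normexp background correction, or with the CC9spretus arrays left out of the fit. The median difference over the domain was 1.49, 1.28, 0.87 and 1.36 in these fits, and in the last of them 49 of the 86 and 23.8% of all probes had an unadjusted p under 0.05. Over the array 2456 of 88737 probes (2.77%) were called in this contrast in either direction. Of the 15, 5 lay at the Ascl2 end, 3 in locus 4, 3 at Cdkn1c and 4 at the Phlda2 end. The median difference over the 86 probes was 1.36, against -0.07 over all probes, and it was 0.65 without CC9mus replicate 3, 2.11 without replicate 1 and 0.63 with the arrays scaled to an equal spread. The largest among those called were 3.34 (SE 0.64, adjusted p = 0.0466, limma) at A_68_P25601081 of Cdkn1c and 3.25 (SE 0.70, adjusted p = 0.0466, limma) at A_68_P25601378 of the Phlda2 end. At the first of these, CC9mus measured 1.04, 3.11 and 5.12, CC9dunni -0.07, 0.03 and 0.14, and CC9pahari -0.96, -0.57 and -0.06, so the groups did not overlap. At A_68_P25601378 the values were 0.34, 1.21 and 4.22 in CC9mus and -2.03 to -0.61 on the arrays of the other 3 lines, again without overlap, and the IP was well above background on 6 of 12 arrays. The smallest were 1.49 at A_68_P25598746 and 1.74 at A_68_P25598740, both in locus 4. All 15 adjusted p-values were between 0.0466 and 0.0487, close to the threshold of 0.05. Leaving out CC9mus replicate 1 gave 63 calls in the domain, in a fit that called 39.6% of all probes, and leaving out any one of the other 11 arrays gave 0.

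By locus, none of the 10 passed the test in this contrast, and none of the 14580 did (0.0%), while 8 of the 10 and 4597 of all loci (31.5%) had an unadjusted p under 0.05 in limma. The differences between CC9mus and the mean of CC9dunni and CC9pahari were 1.92 at Cdkn1c (95% interval 0.60 to 3.24, adjusted p = 0.0754), 1.66 at the Ascl2 end (0.64 to 2.67, adjusted p = 0.0631), 1.61 at the Phlda2 end (0.54 to 2.67, adjusted p = 0.0712) and 1.64 at locus 4 (0.74 to 2.53, adjusted p = 0.0604). They were 1.55, 1.54, 1.09 and 0.94 at loci 6, 7, 9 and 2, and 0.14 at locus 3 (-0.63 to 0.91). The fit shares its residual spread among the lines. At Cdkn1c the SD was 1.92 in CC9mus and 0.05 to 0.13 in the others, so the CC9mus intervals may be too narrow. The CC9mus p-values, those of the 15 called probes included, may be too low for the same reason. The differences rest on CC9mus replicates 2 and 3, the arrays of widest spread, and most on replicate 3. Without CC9mus replicate 1, which had the narrowest spread, 8 loci were called with differences of 1.39 to 2.85, where 50.4% of all loci were, and the control region (-0.11) and locus 3 (0.29) were not. Without replicate 3 the differences of these 8 loci were 0.40 to 1.01, among them 0.93 at Cdkn1c, 0.86 at the Ascl2 end and 0.77 at the Phlda2 end. Without replicate 2 they were 0.89 (locus 9) to 1.99 (Cdkn1c), among them 1.85 at the Ascl2 end and 1.83 at the Phlda2 end. Replicate 1 alone was above the mean of CC9dunni and CC9pahari at the Ascl2 end (0.44), locus 2 (0.03), locus 4 (0.49), Cdkn1c (0.07) and the Phlda2 end (0.38), and below it at loci 6 (-0.23), 7 (-0.34) and 9 (-0.35). With all arrays scaled to an equal spread, 5 loci and 25 probes of the domain were called, beside 13.1% of all loci and 12.3% of all probes, and with the slide block, the scan period block or normexp no locus and no probe of the domain was.

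For CC9dunni and CC9pahari, each against the mean of the other 2 of the 3 lines, limma called no probe of the domain and none of the array (0.0% in either contrast). Unadjusted p-values under 0.05 were found for 7 of the 86 probes of the domain in CC9dunni and 21 in CC9pahari, all of them lower in the named line. Over the array they were found for 6814 and 4990 probes (7.68% and 5.62%). No locus was called in either contrast (0.0% of all loci), and 844 and 953 loci (5.79% and 6.54%) had an unadjusted p under 0.05. In the domain that was none in CC9dunni, and in CC9pahari only locus 4, with a difference of -1.28 (95% interval -2.17 to -0.38, adjusted p = 0.623). Both contrasts include CC9mus, and share its arrays with the contrast above.

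**Figure D5:**
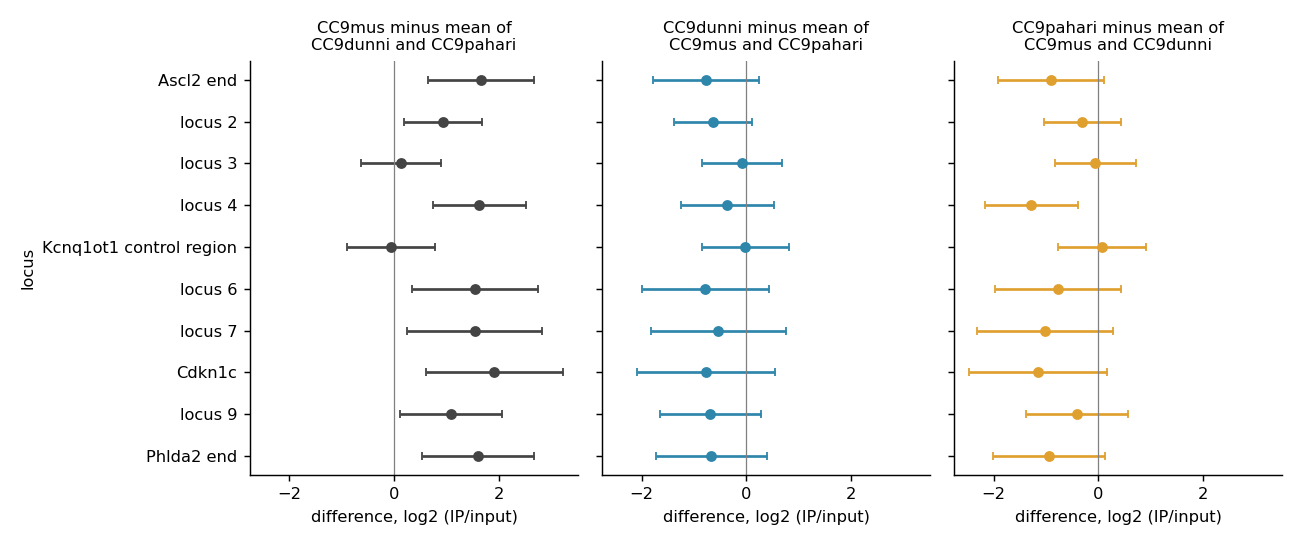
Difference in log2 (IP/input) with its 95% interval from limma (12 arrays) at the 10 loci of the domain, for CC9mus (left), CC9dunni (middle) and CC9pahari (right), each minus the mean of the other 2 of these lines. The interval of CC9mus lies above 0 at 8 loci and spans 0 at the control region (-0.89 to 0.78) and locus 3, and no locus passed the adjusted threshold. The intervals come from a residual spread shared among the lines. CC9mus had the largest SD at the 9 loci other than the control region, so its intervals there may be too narrow.

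A probe was also counted as enriched or depleted where the mean of a line was above 2 or below -2. On the centred scale this is a ratio of IP over input 4-fold from that of the array's median. In CC9spretus 10 of the 86 probes were above 2, among them all 8 of the control region, 1 in locus 4 and 1 at Cdkn1c, where 5.16% of all probes were. In CC9mus 28 were above 2 (9.39% of all probes), 14 of them among the 15 probes of Cdkn1c, 4 in locus 7, 3 in locus 6, 2 each at the Ascl2 end and in loci 4 and 9, 1 at the Phlda2 end and none in the control region. CC9dunni had 2 such probes (5.32% of all probes) and CC9pahari 1 (4.71%). No probe of the domain was below -2 in any line, where the shares of all probes were 3.25% in CC9mus, 1.08% in CC9spretus, 0.586% in CC9dunni and 0.124% in CC9pahari. The CC9mus count was 48 without replicate 1 (17.7% of all probes) and 6 without replicate 3 (4.28%). It was 21 with ratios not centred (7.18%), 7 with the arrays scaled to an equal spread (3.74%) and 2 with normexp (2.32%).

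Outside the window, the nearest locus before it lay 299.7 kb away (4 probes, chr7:149849765-149850273) and had a mean of 1.98 ± 1.49 in CC9mus and -0.01 to 0.16 in the other lines. The nearest locus after it lay 24.2 kb away (6 probes, chr7:150734207-150735318) and had a mean of -1.10 ± 0.80 in CC9mus (SD, n = 3) and -0.47 to -0.28 in the other lines. At neither was CC9spretus the highest line.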

How the data were processed

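DNA methylation was measured in 12 samples, 3 biological replicates of each of 4 ES cell lines, on Agilent 2-colour mouse CpG island arrays. Groups and replicates came from the sample labels. Scans were read by the authors in Agilent Feature Extraction (11.0.1.1 in the file headers, 11.0.1.0 in the submitters' processing notes), and the deposited processed signals are intensities after background subtraction and linear dye normalisation. The deposited table of the series holds the log10 ratio of IP over input of the same arrays (largest difference from the array files 0). Labelling used 120 to 250 ng of IP DNA and 400 ng of input DNA, without exchange of dyes.

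From the intensities, log2(IP/input) was computed for 88737 probes (5950 control spots left out), spots marked as outliers were dropped, and the median of every array was subtracted (-0.36 to -0.02 before centring). Positions (88321 probes) were those of the array files, on mm9. No mm9 annotation was used here. Differences were tested in limma 3.58.1 (R 4.3.3; lmFit, eBayes, 4 line means, 12 arrays, 8 residual degrees of freedom) with Benjamini-Hochberg adjustment over all probes or all loci, a locus being the mean of its probes. In the fit without blocks, the estimates of the 3 contrasts held no value of CC9spretus, which was used to choose the domain. Its values did enter the residual spread. Where scan periods were blocked, CC9spretus arrays helped to set the block effect, so their values entered the estimates as well. Blocking by slide could also bring them in, since CC9spretus replicate 3 and CC9dunni replicate 3 shared a slide. Probes named singly were those of the control region, the 2 highest and 2 lowest CC9spretus differences in the rest, and the 2 largest and 2 smallest among the probes called. Other probes and loci named with values were chosen after these were seen. The domain, members and lists were chosen with earlier results of these data known. Simulated data were used to check limma's calls. Alternatives were ratios not centred, normexp (offset 50), the deposited ratios, equal median absolute deviations (equal spread), probes with a dim input left out, dim IP signals raised to a floor, each array left out, blocks for replicate number, slide and scan period, the later scan period only, and gaps of 500 and 2000 bp. The scan period block with equal spread and a fit of 9 arrays without CC9spretus were added after the data were seen. Sums and figures used Python 3.11.15, pandas 2.3.3 and matplotlib 3.10.9. Between 75.2% and 98.6% of probes per array had an IP marked well above background, and between 92.4% and 99.8% had such an input. The number of arrays limits the precision.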

Additional observations from a re-analysis of the deposited data

How the results depend on the processing

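The difference of CC9spretus from the other lines at the Kcnq1ot1 control region, 3.50 on the log2 scale, ranged from 2.45 (normexp) to 4.10 (scan period block with equal spread) over the alternatives. Leaving out 1 array at a time gave 2.92 to 3.85, and the later scan period alone gave 2.73. The CC9spretus mean there was 2.20 with normexp and 2.72 to 3.65 with 1 array of that line left out. In the later scan period alone the means at the control region were 0.35 in CC9dunni and 0.19 in CC9pahari.

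The CC9mus calls moved most. Against 15 probes and 0 loci of the domain called higher in CC9mus than in CC9dunni and CC9pahari, 0 probes were called with normexp, the slide as a random block, the scan period as a block, the later scan period only and no CC9spretus array in the fit, 25 probes and 5 loci with equal spread, 27 probes (26 of them higher) and 4 loci with the scan period block and equal spread, and 2 loci without centring. Leaving out 1 array gave 0 to 63 probes and 0 to 8 loci, 63 and 8 without CC9mus replicate 1 and 0 without any other array. For CC9dunni, 1 probe was called with the scan period block and equal spread, and 0 to 7 probes and 0 to 2 loci with 1 array left out. For CC9pahari, 2 probes and 1 locus were called with that block, and 0 to 12 probes and 0 to 5 loci with 1 array left out. In both lines the calls with 1 array left out came without CC9mus replicate 1. Over the whole array, against 2456 probes and 0 loci, the CC9mus contrast called 35100 probes and 7343 loci without CC9mus replicate 1, 10917 and 1914 with equal spread, 4125 and 836 without centring, 6176 and 614 with the replicate block, and 20170 and 4620 with the scan period block and equal spread. It called 0 probes with normexp, the slide block, the scan period block (8 loci), the later scan period only and no CC9spretus array in the fit. Without CC9mus replicate 1, 3519 probes and 1234 loci were called for CC9dunni and 1675 and 1875 for CC9pahari, against 0 with all arrays. The scan period block with equal spread gave 4609 probes and 1121 loci for CC9dunni and 551 and 236 for CC9pahari, and equal spread alone 80 and 51 for CC9dunni. The causes were not tested.

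With the replicate block, 22 probes and 1 locus of the domain were called in CC9mus, and the CC9spretus difference stayed 3.50. Deviations of same-numbered arrays from their line means correlated with a median of 0.13 (18 pairs, range -0.38 to 0.54, 12 above 0.1), and those of differently numbered arrays with a median of -0.11. Replicate 3 of CC9spretus, CC9dunni and CC9pahari shared the later scan period and their replicates 1 and 2 the earlier one, while all CC9mus arrays were in the later, so in 3 lines the numbers follow the scan period. Since not every pair was above 0.1, the numbers were not taken to pair the arrays.

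Small differences changed sign. At the control region the CC9mus difference (-0.06) was -0.51 in the later scan period only, -0.20 with the scan period block, and -0.13 to 0.083 with 1 array left out, above 0 without replicate 3 of CC9pahari, CC9mus or CC9dunni. The CC9dunni difference there (-0.02) was 0.035 with dim IP signals raised, 0.045 without centring, 0.060 with equal spread, 0.057 with the scan period block, 0.14 with both, 0.13 with the slide block, 0.38 in the later scan period only, and -0.30 to 0.13 with 1 array left out. The CC9pahari difference (0.07) was -0.00694 with equal spread and -0.10 to 0.21 with 1 array left out. At locus 3 the CC9mus difference (0.14) was -0.00945 with equal spread, -0.014 with the scan period block, -0.14 with both, -0.19 with normexp, and -0.42 to 0.55 with 1 array left out, the lowest without CC9mus replicate 3. At locus 9 it was -0.16 with the scan period block and equal spread.

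The counts of probes with a mean above 2 fell from 28 in CC9mus to 2 with normexp (2.32% of all probes) and 7 with equal spread (3.74%), and ranged from 6 to 48 with 1 array left out. CC9spretus had 6 with normexp (2.77%), against 10. CC9dunni had 0 with normexp (2.13%), 1 without centring (4.92%) or with dim inputs left out (5.38%), and 1 to 2 with 1 array left out. CC9pahari had 5 above 2 (8.1%) and 1 below -2 (0.538%) in the later scan period only. Leaving out 1 array gave 0 to 1 probes below -2 in CC9mus, CC9spretus and CC9dunni, each time 1 without replicate 3 of that line (2.26%, 3.46% and 2.74% of all probes). Probes with the CC9spretus arrays below all others numbered 1 with equal spread (0.329% of all probes), 16 in the later scan period only (4.89%), where 1 array stands for the line, and 0 to 5 with 1 array left out (1.93% for the 5, without CC9spretus replicate 3). Line means at the 9 other loci moved by more than 1 SD in 51 of 684 cases.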
